A study of Mus musculus with 22 samples.

Results

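The comparison described here sets livers taken at ZT22, late in the active phase, against livers taken at ZT18, in the middle of that phase, in male mice without adiponectin. Zeitgeber time (ZT) counts hours after lights on in a day of 12 h light and 12 h darkness, and mice, being nocturnal, feed and move mainly in the dark. The ZT22 group had 4 arrays (ZT22a to ZT22d) and the ZT18 group 3 arrays (ZT18a to ZT18c), 7 of the 22 arrays in the series, and each array was taken as 1 mouse. All 22206 features of the array entered the comparison. Both groups carried the Adipoqtm1Chan deletion throughout the body on a C57BL/6J background, were 3 to 8 months old, were housed in groups and ate standard chow freely. No wild-type liver was analysed, so the values show how liver transcripts differed between both times in the knockout and do not measure an effect of losing adiponectin, the hormone that fat cells secrete and that acts on liver through its receptors. Total RNA of each liver, 100 ng per sample, was hybridised to a Clariom S array, which summarises expression per gene. All levels are log2 values as deposited, a difference is ZT22 minus ZT18 in log2 units, and a called gene is one whose adjusted p-value from limma's moderated test was under 0.05.

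The circadian clock of the liver is a loop of transcription factors. BMAL1 (encoded by Arntl) pairs with CLOCK or NPAS2 and switches on genes through E-boxes, among them the Period and Cryptochrome genes, whose proteins later shut that pair down. The same pair drives the REV-ERB receptors (Nr1d1, Nr1d2), which bind ROR elements and repress Arntl and Npas2, and the factor DBP, which acts through D-boxes on further genes. In a nocturnal animal the end of the night is when the activating arm is known to return while the products of the day have faded, and when the liver moves from storing the food of the night towards the daytime fast.

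The 7 arrays correlated closely, and the labels give no batch. Pearson's r between pairs of them lay between 0.986 and 0.994 over all features, and 0 of 21 pairs were identical. It was 0.986 to 0.993 within ZT22, 0.994 within ZT18 and 0.988 to 0.992 between the times, so the least alike pair lay within ZT22. The lower quartile of an array was 3.69 to 3.85, and a level near it could not be told from background. Adipoq measured 3.68, 4.39, 3.91 and 3.99 at ZT22 against 4.07, 3.83 and 3.46 at ZT18, all near that level, which checks the genotype little because liver makes little of this hormone. Hepatocyte markers averaged 18.52 to 18.56 in the ZT22 arrays and 18.48 to 18.53 in the ZT18 arrays, as fits a liver sample. Markers of bile duct cells averaged 6.16 to 6.49 at ZT22 and 5.91 to 6.08 at ZT18, without overlap, although 0 of the 6 measured were called. Those of sinusoidal endothelium lay at 9.74 to 9.99 and 9.26 to 9.75, and those of lymphocytes at 4.37 to 4.54 and 4.54 to 4.67. In bulk liver, fewer cells of a type and less RNA per cell cannot be told apart, and the part of these cells in the results was not tested. Array ZT22a stood apart in Tff3 among other genes: Tff3, which encodes a secreted trefoil peptide of mucous epithelia, measured 11.42 in ZT22a against 3.84, 2.95 and 2.50 in the other ZT22 arrays and 2.31, 2.97 and 2.33 at ZT18. Counts without ZT22a are therefore given below.

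Between ZT18 and ZT22 few transcripts moved far enough to be called, and the clock headed them. Of 22206 features 18 were called (0.0811%), 10 higher at ZT22 (0.045%) and 8 lower (0.036%). Each of the 18 named a known gene, and in each of them all 4 ZT22 arrays lay on one side of all 3 ZT18 arrays. Calls and overlap were read from the same arrays, so the lack of overlap is not separate support for the calls. Over all features the arrays of both times did not overlap in 1786 (8.04%), 807 of them higher at ZT22 (3.63%) and 979 lower (4.41%), and 1142 had an unadjusted p under 0.05 (5.14%), 499 higher (2.25%) and 643 lower (2.9%). The median difference over all features was −0.008, with quartiles of −0.168 and 0.152, and 60 features were over 2-fold higher and 86 over 2-fold lower at ZT22. The number of calls depended on single arrays: it was 15 without ZT22a, 8 without ZT22b, 7 without ZT22c, 18 without ZT22d, 10 without ZT18a, 8 without ZT18b and 9 without ZT18c. Npas2, Dbp, Nr1d2, Wee1, Gys2, Per3 and Amdhd1 kept their calls under all 30 alternatives tried for single genes, and the other 11 lost theirs under at least 1.

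**Figure D1:**
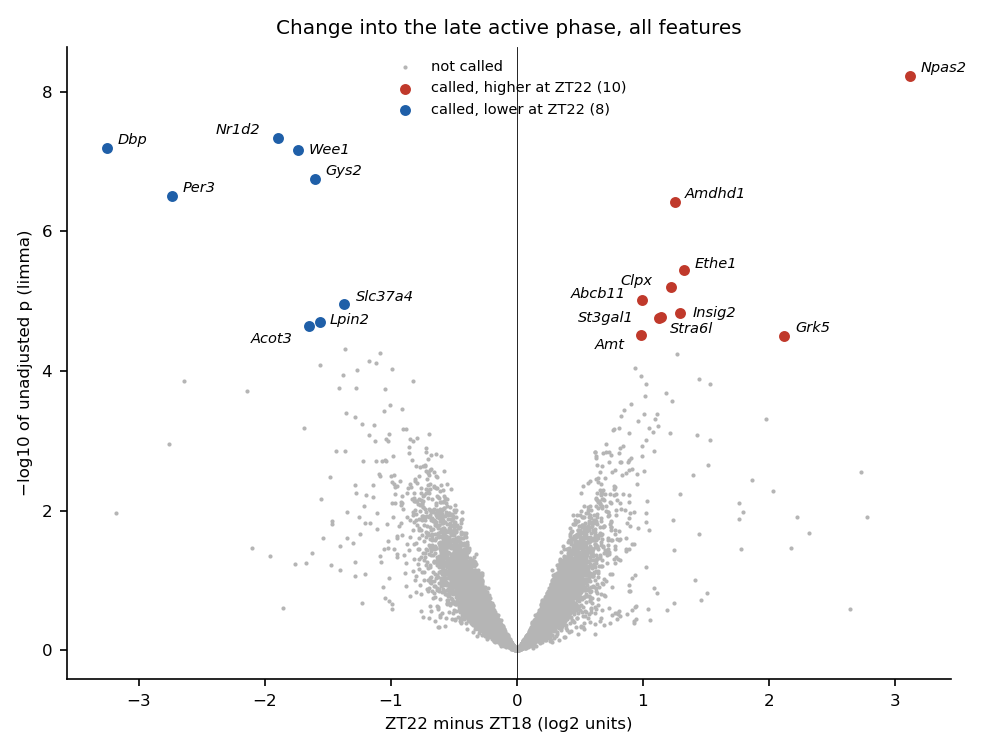
Each point is 1 of 22206 features, with the difference ZT22 minus ZT18 in log2 units across and −log10 of limma's unadjusted p up. The 10 genes called higher at ZT22 are red and the 8 called lower are blue, and Npas2 stands farthest to the right and Dbp farthest to the left among them.

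Within the core clock 3 of the 14 measured genes were called, against 0.0811% of all features: Npas2 rose, and Nr1d2 and Per3 fell. The arrays of both times did not overlap in 8 of the 14 (57.1%, against 8.04% of all features), 4 in each direction. The median difference of the list was −0.178. Npas2, on chromosome 1, the partner of BMAL1 in place of CLOCK, rose most of all called genes: it measured 7.40, 8.69, 7.24 and 7.71 at ZT22 against 4.76, 4.17 and 4.98 at ZT18. Its ZT18 levels sat not far above background, and every ZT22 array was over 2 log2 units higher. The difference was 3.12 ± 0.36 (SE, 8.71-fold, adjusted p = 0.000131, limma). Arntl, which encodes BMAL1 itself, measured 10.62, 10.70, 10.53 and 10.36 at ZT22 against 8.98, 9.40 and 8.93 at ZT18. Its arrays were tightly grouped and did not overlap, with a difference of 1.45 ± 0.32, yet the adjusted p was 0.0955. Clock, the usual partner, differed by 0.56 ± 0.20 (adjusted p = 0.712), again without overlap. All 3 activators were thus higher in all 4 ZT22 arrays, and 1 was called.

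Of the REV-ERB receptors, Nr1d2 was called and Nr1d1 was not, and both had their lowest time mean at ZT22. Nr1d2 (REV-ERBβ, chromosome 14) measured 7.96, 7.37, 7.86 and 8.22 at ZT22 against 9.74, 9.66 and 9.84 at ZT18, a clear separation with little spread at ZT18. It fell by 1.89 ± 0.24 (SE, 3.72-fold, adjusted p = 0.00038). Nr1d1 (REV-ERBα) measured 5.03, 5.09, 5.69 and 5.78 at ZT22 against 6.07, 5.22 and 5.45 at ZT18. Its groups overlapped at a low level and differed by −0.18 ± 0.32 (adjusted p = 0.999). Rora, an activator that competes for the same elements, differed by −0.14 ± 0.22.

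Among the Period genes, whose proteins carry the cryptochromes into the nucleus, Per3 (chromosome 4) was called. It measured 7.31, 5.73, 7.14 and 7.06 at ZT22 against 9.69, 9.48 and 9.47 at ZT18. ZT22b was the lowest array by more than 1 log2 unit, and without it the difference was −2.38 (adjusted p = 0.00483). With all arrays Per3 fell by 2.74 ± 0.39 (SE, 6.67-fold, adjusted p = 0.00114). Per1 and Per2 differed by −1.19 ± 0.40 and −0.99 ± 0.34, with overlapping arrays and adjusted p-values of 0.606 and 0.651. Per2 was as high in ZT22b, at 9.30, as in the ZT18 arrays (9.50, 9.13 and 9.17).

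The remaining repressors did not move as one. Cry1, the later of the cryptochromes, measured 10.23, 9.98, 9.34 and 9.70 at ZT22 against 8.84, 9.27 and 9.30 at ZT18, while Cry2 measured 10.08, 10.23, 10.05 and 10.58 against 10.90, 11.07 and 10.85. Both pairs of groups were free of overlap in opposite directions, with differences of 0.68 ± 0.23 and −0.70 ± 0.21, and neither was called (adjusted p = 0.638 and 0.452). Ciart (CHRONO), another inhibitor of the BMAL1 complex, measured 4.42, 4.83, 4.96 and 4.59 at ZT22 against 6.20, 6.47 and 6.12 at ZT18. That is a difference of −1.56 ± 0.33 that approached a level near background at ZT22 and stayed short of the threshold (adjusted p = 0.0763). The E-box repressors Bhlhe40 and Bhlhe41 differed by 0.01 ± 0.32 and −0.17 ± 0.47.

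The promoters of Per3, Ciart and Arntl are printed because they hold the letters of the elements through which the clock arms act, and because their transcripts differed in opposite directions between these times. The windows are from RefSeq on build GRCm38.p6, run from 250 bases before a start site to 50 after it, and are written 5′ to 3′ on the strand of the gene with each match in capitals. They are Per3 at chr4:151044616-151044915 on the minus strand with D-boxes, Ciart at chr3:95882179-95882478 on the minus strand with E-boxes, and Arntl at chr7:113207261-113207560 on the plus strand with a ROR element.
Per3: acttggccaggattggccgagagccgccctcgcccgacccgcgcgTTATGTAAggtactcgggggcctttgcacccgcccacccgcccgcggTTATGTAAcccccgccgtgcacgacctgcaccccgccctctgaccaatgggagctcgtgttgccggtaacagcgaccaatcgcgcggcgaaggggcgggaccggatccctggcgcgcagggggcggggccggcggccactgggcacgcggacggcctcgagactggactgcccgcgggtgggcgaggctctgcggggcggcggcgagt
Ciart: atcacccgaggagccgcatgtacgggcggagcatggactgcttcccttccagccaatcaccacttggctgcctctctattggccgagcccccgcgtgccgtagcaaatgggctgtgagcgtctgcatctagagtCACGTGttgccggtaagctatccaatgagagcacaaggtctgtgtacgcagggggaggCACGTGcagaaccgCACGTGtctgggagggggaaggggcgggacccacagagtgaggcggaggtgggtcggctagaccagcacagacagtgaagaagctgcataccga
Arntl: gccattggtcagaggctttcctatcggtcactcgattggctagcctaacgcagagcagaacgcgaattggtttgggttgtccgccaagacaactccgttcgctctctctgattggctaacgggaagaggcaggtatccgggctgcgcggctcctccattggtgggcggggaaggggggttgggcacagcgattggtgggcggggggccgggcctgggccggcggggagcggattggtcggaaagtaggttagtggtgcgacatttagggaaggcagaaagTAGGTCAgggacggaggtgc

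Per3 held 2 D-boxes (TTATGTAA), with first bases at −205 and −158 from the start site, and a D-box was found in such a window of 1.11% of 27025 genes. Ciart held 3 E-boxes (CACGTG) at −116, −58 and −44, a motif present for 8.09% of genes. Arntl held a ROR element (TAGGTCA) from base 31 after the start in 1 of its 2 windows, and 2.97% of genes had one. Both strands were searched, and no matches overlapped. Cry1, Per1 and Bhlhe41 each held 1 E-box, at −60, −166 and −153, that of Per1 in 1 of its 2 windows. A window was given for 15 of the 18 called genes; Wee1, Gys2 and St3gal1 are named only. Beside Per3, those with a match were Abcb11 and Slc37a4 (a ROR element at −56 and −128), Lpin2 (an E-box at −9) and Grk5 (a heat shock element, GAANNTTC, at −202, found for 9.04% of genes). Slc37a4 and Lpin2 had 3 windows each, with the match in 1 of them. The windows of Npas2, Dbp and Nr1d2 held none of the 7 motifs searched, the others being the cAMP response element (TGACGTCA), the sterol response element (TCACCCCAC) and the glucocorticoid response element, which says only that these letters are not in these windows.

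**Figure D2:**
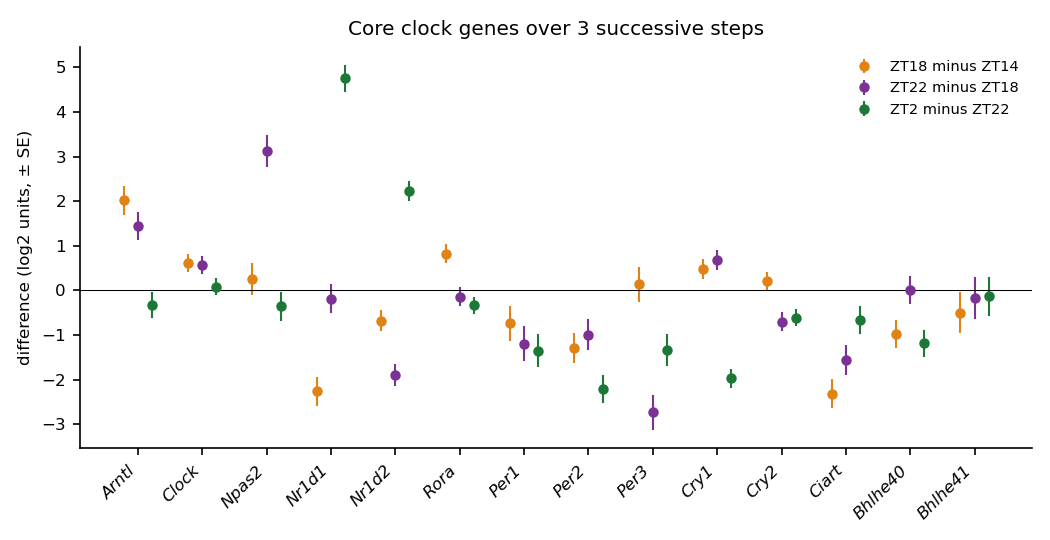
Differences with SE (log2 units, from limma) of the 14 core clock genes for 3 successive steps of the day, ZT18 minus ZT14, ZT22 minus ZT18 and ZT2 minus ZT22. Npas2 differed by 0.26, 3.12 and −0.36 over these steps and Nr1d1 by −2.27, −0.18 and 4.75.

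Dbp, a PAR bZIP activator of detoxification genes on chromosome 7 and a direct output of the clock, showed the largest fall among called genes. It measured 8.13, 7.79, 8.14 and 7.43 at ZT22 against 11.13, 11.18 and 11.07 at ZT18, so the ZT18 arrays were nearly equal and every ZT22 array lay far beneath them. It fell by 3.25 ± 0.42 (SE, 9.54-fold, adjusted p = 0.00038). Tef, a related factor, measured 3.50, 3.73, 3.62 and 4.12 at ZT22 against 4.82, 5.07 and 5.20 at ZT18, a difference of −1.29 ± 0.32 (adjusted p = 0.196) with a ZT22 mean at background level. The third member, Hlf, differed by −0.19, and Nfil3 (E4BP4), the repressor that competes for D-boxes, by 0.75 ± 0.23 with overlapping arrays (adjusted p = 0.452). Of the 5 measured targets 0 were called. The constitutive androstane receptor gene Nr1i3 differed by −1.47 without overlap, and Cyp2a4 and Cyp2a5 by −1.24 and −0.72 with it (adjusted p = 0.743, 0.839 and 0.865). The whole list had 1 of 9 called, lower, 3 of 9 without overlap (33.3%, against 8.04% of all features), and a median difference of −0.723.

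Further outputs of the clock or of feeding gave 1 called gene of 15. Wee1, also on chromosome 7, a kinase that holds back entry into mitosis, measured 8.43, 7.92, 8.98 and 8.77 at ZT22 against 10.08, 10.39 and 10.31 at ZT18. All ZT22 arrays were more than 1 log2 unit lower, and it fell by 1.74 ± 0.23 (SE, 3.33-fold, adjusted p = 0.00038). Nampt, the rate-limiting enzyme of NAD salvage, measured 11.19, 9.51, 10.55 and 10.28 against 11.67, 11.43 and 11.42, and Elovl3, which lengthens very long fatty acids, 16.76, 17.76, 17.03 and 17.51 against 16.00, 15.67 and 15.84. Neither pair of groups overlapped, with differences of −1.12 ± 0.30 (adjusted p = 0.288) and 1.43 ± 0.37 (adjusted p = 0.257). The list lay without overlap in 7 of 15 members (46.7%, against 8.04% of all features). Of these, 2 were higher and 5 lower at ZT22, and the median of the list was −0.006. Its extremes outside the called gene, named after their values were seen, were Cdkn1a (p21) at 2.73 and the deubiquitinase gene Usp2 at −1.47, with adjusted p-values of 0.452 and 0.762.

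A gene of glycogen storage and one of glucose release fell at ZT22. Gys2 (chromosome 6), the liver glycogen synthase, measured 11.31, 11.35, 11.91 and 11.52 at ZT22 against 12.95, 13.30 and 13.12 at ZT18. The groups stood more than 1 log2 unit apart, and Gys2 fell by 1.60 ± 0.22 (SE, 3.03-fold, adjusted p = 8e-04). Slc37a4 (chromosome 9), which moves glucose 6-phosphate into the endoplasmic reticulum for its hydrolysis, measured 12.22, 13.07, 12.60 and 13.33 at ZT22 against 13.84, 14.41 and 14.29 at ZT18. Its ZT22 arrays were spread over more than 1 log2 unit but stayed below ZT18, and it fell by 1.38 ± 0.25 (SE, 2.59-fold, adjusted p = 0.0219). That call was lost without any one of ZT22a, ZT22c, ZT18b or ZT18c, with an adjusted p of up to 0.202.

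Other glycogen genes were not called. Ppp1r3c, a subunit that brings phosphatase 1 to glycogen and so activates the synthase, measured 15.33, 15.81, 14.93 and 16.05 at ZT22 against 14.63, 14.15 and 14.46 at ZT18. Its groups did not overlap, in the direction opposite to Gys2, with a difference of 1.12 ± 0.28 (adjusted p = 0.237). Ugp2, which makes the UDP-glucose that the synthase uses, differed by −0.73 ± 0.21 without overlap (adjusted p = 0.41). The glycogen phosphorylase gene Pygl differed by 0.09. In all, 1 of 12 glycogen genes was called, lower, and 3 of 12 did not overlap (25%), with a median of −0.05. In the list of glucose output and use, 1 of 10 was called, Slc37a4, and the median was −0.225. In that list 1 of 10 did not overlap (10%), close to the 8.04% of all features. The glucose 6-phosphatase gene G6pc, partner of Slc37a4, differed by 0.40, Pck1 by −0.40, the liver pyruvate kinase gene Pklr by −1.21 ± 0.42 with overlap (adjusted p = 0.679) and the glucose transporter gene Slc2a2 by −0.60 ± 0.29. Slc2a2 measured 16.44 in ZT22a and 17.59 to 17.93 in the other ZT22 arrays, and its difference was −0.28 without ZT22a.

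Signalling genes of insulin, IGF and adiponectin gave 0 calls of 21 and 0 of 12. Irs2, the insulin receptor substrate that links hepatic insulin to its kinases, measured 10.65, 9.03, 9.47 and 9.97 at ZT22 against 7.57, 9.27 and 7.91 at ZT18. One ZT18 array, ZT18b, reached into the ZT22 range, and the difference of 1.53 ± 0.41 was not called (adjusted p = 0.286). Akt1 and Igfbp4 differed by −0.52 ± 0.20 and −0.44 ± 0.17, without overlap, and Igf1 by 0.02. Among adiponectin receptors and the AMP-activated kinase, Cdh13 (T-cadherin, which binds adiponectin) and Prkaa2 (a catalytic subunit of the kinase) differed by −0.59 ± 0.24 and −0.57 ± 0.21, without overlap, at adjusted p-values of 0.817 and 0.724. Those were the 2 of 12 without overlap (16.7%), and the medians of both lists were 0.023 for insulin and IGF and −0.023 for adiponectin and the kinase. Cdh13 measured 3.97, 4.23, 4.25 and 4.39 at ZT22, near the lower quartile of an array. Of the insulin and IGF genes 2 of 21 did not overlap (9.52%), close to the 8.04% of all features.

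Control of sterol synthesis gave 1 called gene of 21. Insig2 (chromosome 1), which holds the SREBP precursors in the endoplasmic reticulum when sterols are plentiful, measured 10.91, 11.66, 11.65 and 11.58 at ZT22 against 10.18, 10.17 and 10.11 at ZT18. The ZT18 arrays were almost equal, and ZT22a was the lowest ZT22 array. Insig2 rose by 1.30 ± 0.24 (SE, 2.46-fold, adjusted p = 0.0268), and by 1.48 without ZT22a (adjusted p = 0.00637). The call was lost without any one of the other 6 arrays, at adjusted p-values of up to 0.174. Its relative Insig1, itself a target of SREBP, measured 15.92, 16.08, 16.22 and 15.93 at ZT22 against 16.68, 16.82 and 16.63 at ZT18, the opposite direction, with a difference of −0.67 ± 0.23 that was not called (adjusted p = 0.638).

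Of the 16 measured enzymes of cholesterol synthesis 0 were called and 13 had a higher mean at ZT22. The arrays of 5 did not overlap, all higher (31.2%, against 3.63% of all features higher). Hmgcs1, which makes the precursor of mevalonate, measured 16.67, 16.22, 16.16 and 16.17 against 15.13, 15.01 and 14.95 at ZT18. Both groups were tight except for ZT22a, and the difference of 1.27 ± 0.26 was just short of the threshold (adjusted p = 0.06, and 0.194 without ZT22a). Mvk and Idi1, of later steps, differed by 0.64 each, also without overlap, and Sqle by 0.34 with overlap. For the list as a whole 7 of 21 did not overlap (33.3%, against 8.04% of all features), 6 higher and 1 lower. The median difference was 0.307.

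In bile acid handling the export pump rose while the synthesis enzymes were mixed. Abcb11 (chromosome 2), the pump that moves bile salts across the canalicular membrane into bile, measured 14.40, 14.83, 14.67 and 14.56 at ZT22 against 13.57, 13.41 and 13.89 at ZT18. All ZT22 arrays lay above ZT18, and it rose by 0.99 ± 0.18 (SE, 1.99-fold, adjusted p = 0.0213). The call was lost without any one of ZT22b, ZT22c, ZT18a or ZT18b, at adjusted p-values of up to 0.202. Cyp7a1, whose enzyme sets the pace of bile acid formation, measured 15.78, 15.41, 15.14 and 15.31 at ZT22 against 16.35, 16.66 and 16.54 at ZT18, lower in every ZT22 array, with a difference of −1.11 ± 0.40 (adjusted p = 0.713). Hsd3b7, a later enzyme of that pathway, differed by 0.99 ± 0.27 in the other direction, without overlap (adjusted p = 0.322). Uptake transporters had differences of −0.31 for Slc10a1 and −0.69 for Slco1b2. Of the 18 genes 1 was called, higher, and 5 did not overlap (27.8%, against 8.04% of all features), 2 higher and 3 lower. The median of the list was −0.174.

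The called genes of lipid metabolism were Lpin2 and Acot3, both lower at ZT22. Lpin2 (chromosome 17), a phosphatidate phosphatase that yields diacylglycerol for triglyceride, measured 12.81, 11.56, 12.51 and 12.78 at ZT22 against 13.54, 14.60 and 13.80 at ZT18. Both groups spread widely, ZT22b being low and ZT18b high, but did not overlap. It fell by 1.56 ± 0.30 (SE, 2.96-fold, adjusted p = 0.0296), a call lost without any one of ZT22b, ZT22c, ZT18b or ZT18c (adjusted p of up to 0.357). Acot3 (chromosome 12), an acyl-CoA thioesterase of peroxisomes, measured 8.61, 7.86, 9.0 and 9.09 at ZT22 against 10.31, 10.41 and 10.14 at ZT18. It fell by 1.65 ± 0.31 (SE, 3.13-fold, adjusted p = 0.0318), a call lost without any one of ZT22a, ZT22b, ZT22c or a ZT18 array (up to 0.212).

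Of the 23 measured genes of fatty acid and glycerolipid synthesis, Lpin2 was the 1 called and the arrays of 8 did not overlap, all lower at ZT22 (34.8%, against 4.41% of all features lower). They included Gpam, the first enzyme of glycerolipid synthesis, at −0.55 ± 0.20, the fatty acid synthase gene Fasn at −0.64, Elovl6 at −0.92 and the lipogenic Thrsp at −1.30, with adjusted p-values from 0.724 to 0.968. Lpin1, a second phosphatidate phosphatase, measured 9.67, 9.56, 9.75 and 11.30 at ZT22 against 10.81, 12.47 and 10.69 at ZT18. ZT22d lay among the ZT18 arrays, and the difference of −1.25 ± 0.46 was not called (adjusted p = 0.724). ZT18b was the highest ZT18 array, and without it the difference was −0.68. The median of this list was −0.145. Its means were split, with 11 members higher and 12 lower at ZT22 and differences from −1.565 to 0.717. In fatty acid oxidation and ketogenesis 0 of 20 measured genes were called and 3 did not overlap, all lower (15%). These were Bdh1, which interconverts ketone bodies, at −0.65 ± 0.20, Hadh at −0.41 ± 0.18 and Creb3l3 at −0.23, and the median was −0.196. Cpt1a, the gate for fatty acids into mitochondria, differed by −0.28.

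Amdhd1, Amt, Ethe1 and Clpx were called higher at ZT22. Amdhd1 (chromosome 10), which opens the ring of imidazolone propionate in histidine breakdown, measured 13.03, 12.89, 13.16 and 12.92 at ZT22 against 11.67, 11.95 and 11.62 at ZT18. The groups were narrow and far apart, and it rose by 1.25 ± 0.18 (SE, 2.38-fold, adjusted p = 0.00121), and kept its call when each of the 7 arrays was left out (adjusted p from 0.00385 to 0.023). Hal, histidine ammonia-lyase, the first enzyme of the same pathway, measured 16.59, 16.17, 15.84 and 15.54 at ZT22 against 15.16, 14.99 and 14.90 at ZT18, a difference of 1.02 ± 0.24 without overlap that was not called (adjusted p = 0.124). Amt (chromosome 9), the aminomethyltransferase of the glycine cleavage system, measured 11.14, 11.07, 11.07 and 11.29 against 10.53, 9.89 and 10.05. It rose by 0.99 ± 0.19 (SE, 1.98-fold, adjusted p = 0.0393) and lost its call without any one of the ZT22 arrays, ZT18b or ZT18c (up to 0.369).

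Ethe1 (chromosome 7), a mitochondrial persulfide dioxygenase that removes sulfide, measured 13.19, 13.39, 13.34 and 12.70 at ZT22 against 11.37, 11.99 and 12.12 at ZT18. ZT22d was the lowest of its group and still above all ZT18 arrays, and Ethe1 rose by 1.33 ± 0.22 (SE, 2.51-fold, adjusted p = 0.00999). Without ZT22b, ZT22c or ZT18a the call was lost (up to 0.177). Clpx (chromosome 9), the unfoldase of the mitochondrial ClpXP protease, which also takes part in haem synthesis, measured 13.56, 14.62, 14.52 and 14.22 against 12.92, 13.17 and 12.94. ZT22a was the lowest ZT22 array, the groups did not overlap, and it rose by 1.22 ± 0.21 (SE, 2.33-fold, adjusted p = 0.0156). It lost its call without any one of ZT22b, ZT22c or a ZT18 array (up to 0.166).

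The list of amino acid, one-carbon and NAD genes held none of those called genes and gave 0 calls of 22. It had 7 without overlap (31.8%, against 8.04% of all features), 6 higher and 1 lower, and a median of 0.036. The 2 enzymes of transsulfuration, which turns homocysteine into cysteine, were both higher in every ZT22 array. Cbs measured 15.77, 15.03, 15.00 and 15.31 against 14.53, 13.99 and 13.97 at ZT18, and Cth 17.33, 16.75, 16.29 and 15.90 against 15.79, 15.41 and 15.43. Their differences were 1.11 ± 0.27 (adjusted p = 0.186) and 1.02 ± 0.27 (adjusted p = 0.288). ZT22a, the array with high Tff3, was the highest ZT22 array for Hal, Cbs and Cth, whose differences without it were 0.83, 0.95 and 0.77. Got1, the cytosolic aspartate aminotransferase, named after its values were seen, had the largest difference of the list at 2.03 (adjusted p = 0.585). The urea cycle genes Cps1, Otc, Asl and Arg1 differed by −0.48 to 0.30.

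The remaining called rises belonged to none of the lists. Grk5 (chromosome 19), a kinase that desensitises G protein-coupled receptors, measured 9.63, 8.99, 8.13 and 8.16 at ZT22 against 6.45, 6.6 and 6.76 at ZT18. The ZT22 arrays were spread widely but all lay well above ZT18, and it rose by 2.12 ± 0.42 (SE, 4.36-fold, adjusted p = 0.0393). The call was lost without any 1 of the 7 arrays other than ZT22d (up to 0.257), and the difference without ZT22a was 1.82. St3gal1 (chromosome 15), a sialyltransferase that caps O-linked glycans, measured 12.23, 11.97, 12.04 and 11.70 against 10.89, 10.97 and 10.66. It rose by 1.15 ± 0.21 (SE, 2.21-fold, adjusted p = 0.0277), again lost without any 1 of the 7 other than ZT22d (up to 0.253). Stra6l (chromosome 4), which is known in mouse liver as the retinol-binding protein receptor RBPR2, measured 13.82, 13.86, 13.49 and 13.61 against 12.47, 12.70 and 12.52. It rose by 1.13 ± 0.21 (SE, 2.19-fold, adjusted p = 0.0277) and lost its call whichever of the 7 arrays was left out (up to 0.234).

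**Figure D3:**
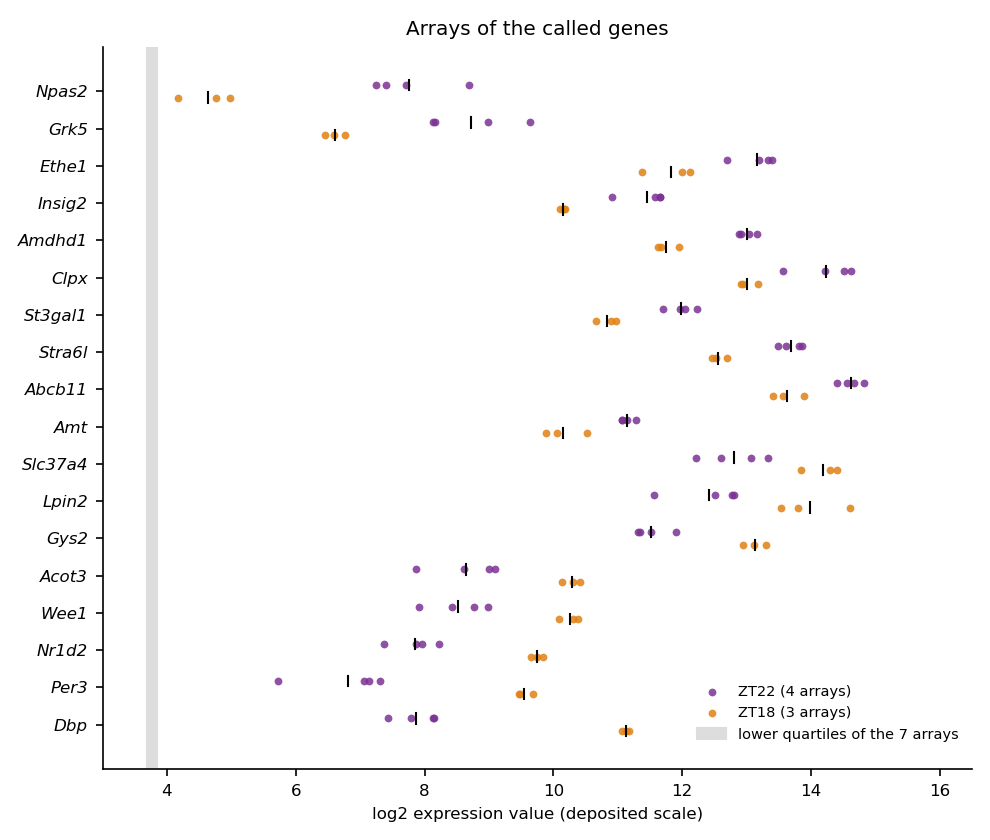
Deposited log2 values of the 18 called genes, 1 point per array, with the 4 ZT22 arrays (purple) drawn above the 3 ZT18 arrays (orange) of the same gene and black ticks at the means. The arrays of both times do not overlap in any of the 18, and the grey band marks the lower quartiles of the 7 arrays, 3.69 to 3.85.

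Chaperones of the endoplasmic reticulum were lower at ZT22 in mean without a call. Of the 21 measured genes of the unfolded protein response and folding in that compartment 0 were called, 20 had a lower mean at ZT22, and the arrays of 9 did not overlap, all lower (42.9%, against 4.41% of all features lower). The median difference was −0.342. Herpud1, a membrane protein of the degradation machinery, measured 14.91, 15.70, 15.60 and 16.36 at ZT22 against 16.74, 17.08 and 16.91 at ZT18, a difference of −1.27 ± 0.27 (adjusted p = 0.0785). ZT22a was the lowest and ZT22d the highest of its group: the difference was −1.02 without ZT22a (adjusted p = 0.277) and −1.51 without ZT22d, where Herpud1 was called (adjusted p = 0.016). Creld2 measured 8.08, 9.04, 9.91 and 8.49 against 11.30, 11.98 and 11.65, a difference of −2.76 ± 0.74 (adjusted p = 0.302). Hyou1, Hspa5 (BiP) and Sdf2l1 differed by −1.36, −1.09 and −1.17 without overlap, at adjusted p-values of 0.343, 0.465 and 0.759. All 12 chaperones of the list had a lower mean at ZT22 and 7 of them did not overlap, while the 5 transcription factors, among them Xbp1 and Atf4, differed by −0.28 to 0.12.

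Cytosolic and mitochondrial heat-shock chaperones and cold-inducible proteins gave 0 calls of 17. In this list 5 did not overlap (29.4%, against 8.04% of all features), 1 higher and 4 lower, and the median was −0.192. Rbm3, an RNA-binding protein induced by mild cold, measured 12.07, 11.74, 11.30 and 11.26 at ZT22 against 13.17, 12.67 and 12.45 at ZT18. Its difference of −1.17 ± 0.24 had an adjusted p of 0.0728 with all arrays and of 0.0337 without ZT22a. The related Cirbp differed by 0.01. Hspb1 and Hsph1, a small and a large heat shock protein, differed by 1.03 ± 0.39 and −0.95 ± 0.45 without overlap (adjusted p = 0.759 and 0.959). ZT22a was the highest ZT22 array for Hspb1 and the lowest for Hsph1, and their differences without it were 0.74 and −0.70. In the glucocorticoid list, 0 of 14 were called and 2 did not overlap, both lower (14.3%, against 4.41% of all features lower), with a median of −0.099. These were Fkbp5, an induced inhibitor of the receptor, at −1.18 ± 0.31 (adjusted p = 0.26), and the receptor gene Nr3c1 itself at −0.50 ± 0.21 (adjusted p = 0.873).

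The other lists also gave 0 calls. Over all features 8.04% had arrays without overlap, 3.63% higher and 4.41% lower at ZT22. Drug metabolism had 6 of 21 without overlap (28.6%), all lower, with a median of −0.296, and Ahr (a xenobiotic receptor), Cyp3a25 and Fmo5 differed by −0.63 ± 0.19, −0.48 ± 0.22 and −0.34 ± 0.17. Male-biased genes had 5 of 12 (41.7%), all lower, with a median of −0.237, among them Ugt2b38 at −0.77 ± 0.23, Susd4 at −1.62 ± 0.75 and Cyp2d9 at −0.56 ± 0.34. Susd4 measured 7.0 in ZT22a and 10.17, 9.17 and 8.72 in the other ZT22 arrays, against 10.19, 10.26 and 10.71 at ZT18. ZT22a, the array with high Tff3, was also the lowest ZT22 array for Cyp2d9 at 17.66, against 18.21, 18.48 and 18.50 in the others. Without ZT22a the differences of Susd4, Cyp2d9 and Ugt2b38 were −1.03, −0.38 and −0.71, and its part in this list was not tested otherwise. Pericentral and periportal genes had 4 of 10 (40%), with Axin2 at 0.55 ± 0.24 and Slc1a2 at −0.62 ± 0.35.

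Acute phase, complement and coagulation proteins had 4 of 20 without overlap (20%), all slightly higher, such as Fga at 0.28 ± 0.15 and Itih4 at 0.27 ± 0.19. Lbp differed by 0.59 ± 0.29 with overlap (0.38 without ZT22d). Of the 20, 12 had a higher and 8 a lower mean at ZT22, and the median was 0.132. In the cell cycle 2 of 18 did not overlap (11.1%, against 8.04% of all features). Tk1, the thymidine kinase of S phase, measured 6.34, 6.35, 5.99 and 5.97 at ZT22 against 7.52, 7.17 and 6.93 at ZT18, a difference of −1.04 ± 0.24 (adjusted p = 0.11), while Ccne2 and Pcna differed by −0.66 ± 0.39 and −0.38 ± 0.29 with overlap, and Ccne2 by −0.40 without ZT22b. Autophagy had 1 of 17 (5.88%), Bnip3 at −0.81 ± 0.25, with Atg14 and Atg5 at −0.32 and 0.30. Ribosomal proteins had 1 of 22 (4.55%), Rps18 at −0.21 ± 0.15, with Rps14 and Rpl15 at 0.53 and −0.27. The shares of the autophagy and ribosomal protein lists were below the 8.04% of all features.

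Ribosome biogenesis (0 of 22), the respiratory chain (0 of 24), immediate early genes (0 of 14) and interferon-stimulated genes (0 of 8) had no member whose arrays were apart. Over all features 8.04% had. Medians of these lists, in the order named, lay at −0.126, 0.005, 0.282 and 0.261. In ribosome biogenesis Fbl, Ncl and Rrp9 differed by −0.38, −0.31 and 0.37. The growth regulator Myc measured 9.12, 5.77, 8.35 and 8.30 at ZT22 against 4.92, 6.12 and 6.09 at ZT18, where ZT22b fell among the ZT18 arrays, and its difference was 2.18 ± 0.97 (adjusted p = 0.899). Among cell markers, Oit3, Cdh5 and Lyve1 of sinusoidal endothelium differed by 1.10 ± 0.27, 0.53 ± 0.21 and 0.90 ± 0.60 without overlap, at adjusted p-values of 0.205, 0.782 and 0.999. They were the 3 of 8 endothelial markers with arrays apart (37.5%), 2 of the 8 had a lower mean at ZT22, and the median was 0.183. Of stellate cell markers 1 of 7 had arrays apart (14.3%), Dcn at 0.51 ± 0.27, 3 of the 7 had a lower mean, such as Reln at −0.14, and the median was 0.036. Of bile duct markers 1 of 6 had arrays apart (16.7%), Tm4sf4 at 0.64 ± 0.38, 1 of the 6 had a lower mean, and the median was 0.351. ZT22a, the array with high Tff3, was the highest ZT22 array for Lyve1 and Tm4sf4, whose differences without it were 0.69 and 0.49. Oit3 and Cdh5 differed by 1.12 and 0.58 without it, and its part in these markers was not tested otherwise. No measured marker of hepatocytes, Kupffer cells, lymphocytes or neutrophils had ZT22 arrays apart from its ZT18 arrays. The same held for markers of erythroid cells, fat cells, pancreatic acinar cells, and gallbladder and gut epithelium.

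**Figure D4:**
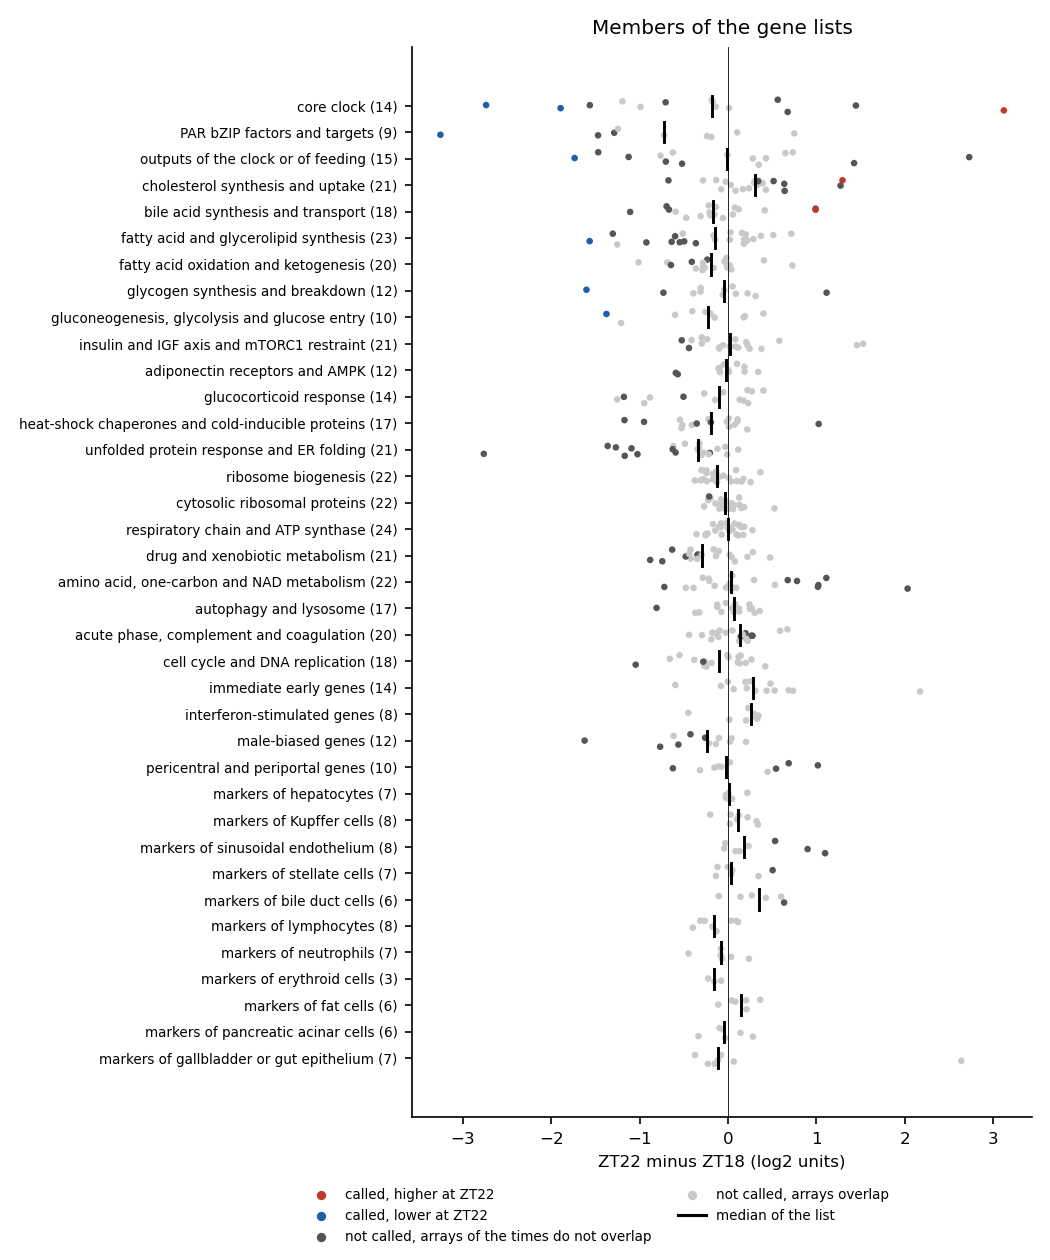
Each point is a measured member of 1 of the 37 gene lists, placed by its difference ZT22 minus ZT18 in log2 units, with the number of members in brackets and a black tick at the median of the list. The called genes are coloured, the dark grey points are genes whose arrays did not overlap, and the row of endoplasmic reticulum folding lies mostly left of 0 with a median of −0.342.

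Set beside its neighbours in the day, the step into ZT22 took different places in the course of the called genes. The steps share arrays with each other (ZT18 with the step before, ZT22 with the step after), so their values are given side by side. Npas2 differed by 0.26 ± 0.36 from ZT14 to ZT18, 3.12 ± 0.36 from ZT18 to ZT22 and −0.36 ± 0.33 from ZT22 to ZT2, and had its highest mean, 7.76 ± 0.65 (SD, n = 4), at ZT22. Per3 differed by 0.14 ± 0.39, −2.74 ± 0.39 and −1.33 ± 0.36 over the same steps. Dbp differed by −2.16 ± 0.42, −3.25 ± 0.42 and −0.47 ± 0.39, and Wee1 by −0.10 ± 0.23, −1.74 ± 0.23 and −1.51 ± 0.21. Gys2 differed by −0.59 ± 0.22, −1.60 ± 0.22 and −0.03 ± 0.20, and Slc37a4 by −0.30 ± 0.25, −1.38 ± 0.25 and −0.46 ± 0.23. Clpx had its larger step earlier, with 1.77 ± 0.21, 1.22 ± 0.21 and −0.20 ± 0.20, while Insig2 had positive differences at each step, with 1.003 ± 0.24, 1.30 ± 0.24 and 0.53 ± 0.22. Acot3 had its highest time mean at ZT18 (10.29) and its lowest at ZT2 (6.71).

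**Figure D5:**
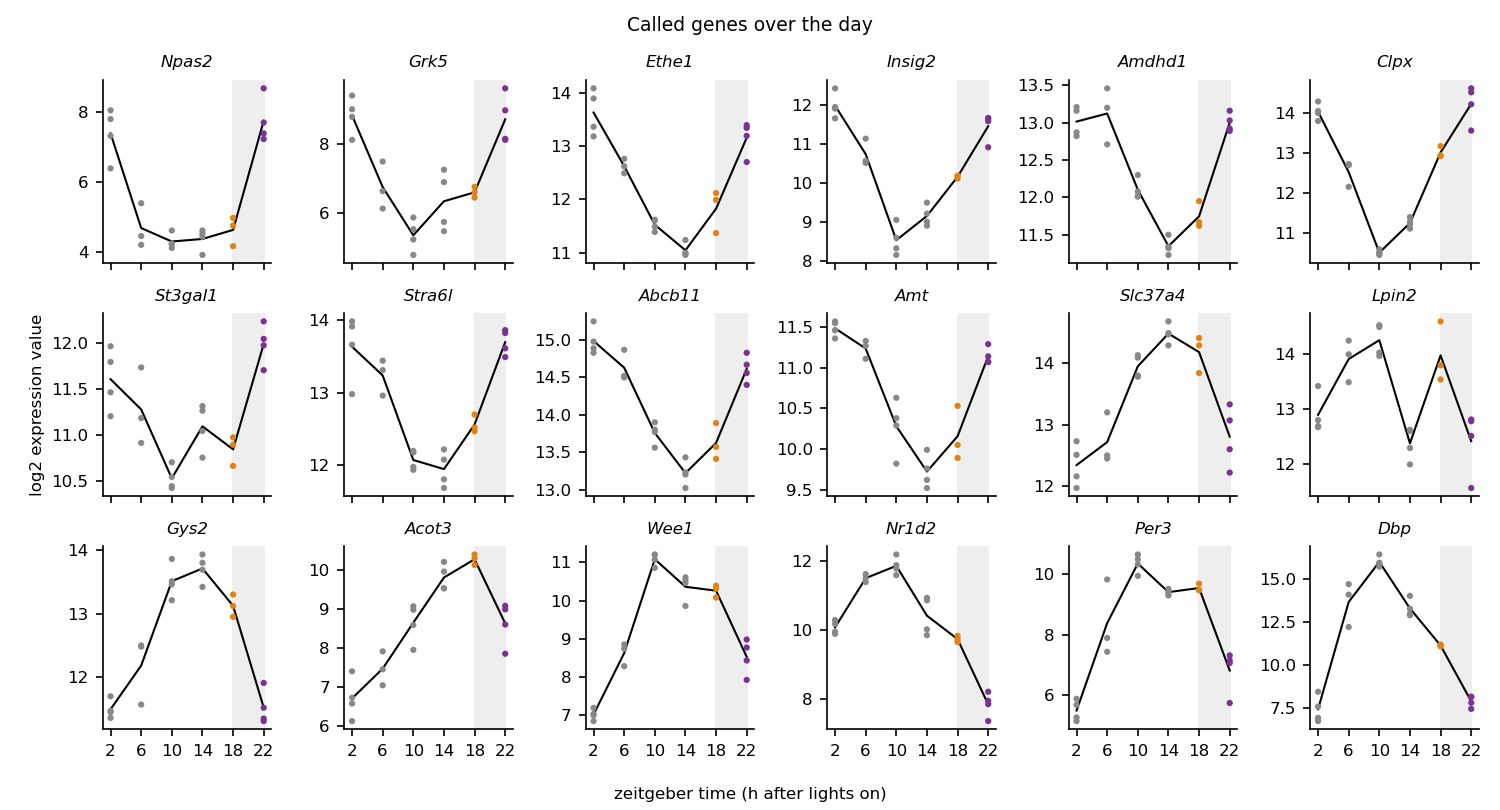
Deposited log2 values of the 18 called genes by zeitgeber time (h), 1 point per array and a line through the 6 time means, with the interval from ZT18 (orange) to ZT22 (purple) shaded. Npas2, Clpx, St3gal1 and Stra6l have their highest time mean at ZT22, and Nr1d2 its lowest.

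Whether the course bent at ZT18 or at ZT22 was tested across all features. The step into ZT22 minus the step into ZT18 gave 0 of 22206 called by limma (0%), with 1318 at an unadjusted p under 0.05. The nearest was Lpin2, whose step into ZT18 was 1.61 ± 0.30 and into ZT22 −1.56 ± 0.30, a difference of steps of −3.17 ± 0.52 (adjusted p = 0.0679). The step into ZT2 minus the step into ZT22 gave 6 called (0.027%), 5 of them named genes, of which Nr1d2, Nr1d1, Cry1 and Npas2 belong to the core clock. Nr1d2 turned upwards: its step into ZT22 was −1.89 ± 0.24 and that into ZT2 was 2.23 ± 0.22, a difference of steps of 4.13 ± 0.40 (adjusted p = 5.41e-06). Nr1d1, level from ZT18 to ZT22, differed by 4.75 ± 0.30 into ZT2, a difference of steps of 4.94 ± 0.53 (adjusted p = 1.89e-05). Cry1, highest of all times at ZT22 with a mean of 9.81 ± 0.38 (SD, n = 4), turned downwards, with steps of 0.68 ± 0.23 and −1.97 ± 0.21 (difference of steps −2.64 ± 0.38, adjusted p = 0.00217). Ppp1r3c did likewise, with steps of 1.12 ± 0.28 and −2.09 ± 0.26 (difference −3.21 ± 0.47, adjusted p = 0.00229), and Npas2 levelled off (difference −3.48 ± 0.59, adjusted p = 0.017). For the other called genes of the comparison the bend at ZT22 was not called, for example Dbp (adjusted p = 0.392), Gys2 (0.293) and Per3 (0.808).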

How the data were processed

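Livers of 22 mice were measured on Clariom S arrays, of which 7 form the comparison. The deposited data give a single value per feature and array. These were read as log2 values made by the authors, since they run over a log-like range without negative numbers; their base is inferred, and the authors' background correction, normalization and software are likewise not given in the sources used. Symbols came from the platform annotation: 19572 features had 1 symbol, 2634 had none, and 19505 genes were named. Chromosomes and promoters are from RefSeq (GRCm38.p6).

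A model of 6 time means was fitted to all 22 arrays with limma 3.58.1 in R 4.3.3 (lmFit, eBayes; with data.table, version 1.17.8), without a filter, and p-values were adjusted over 22206 features by Benjamini and Hochberg (threshold 0.05). The 2 differences of steps were contrasts of that model. The procedure was tested on simulated data. Arrays have no read depth, and their number limits the precision; the p-values reflect only how far these samples scatter, which may be technical.

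The 37 gene lists and the comparison were chosen with earlier results of these data known. Named genes are the called genes (up to 12 per direction, non-overlapping arrays), the core clock, the 3 members of lowest adjusted p in every other list, Adipoq and Tff3, 128 in all; predicted genes were left out, and any other list member was named after its values were seen. Not overlapping means that all arrays of one time lie above all of the other, which held for 8.04% of all features.

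Alternatives were quantile normalization, centring, features above the median level, a trend and robust prior, array weights, the replicate letter as a block, ranks, the 7 arrays alone, a threshold of 0.01, a 1.5-fold minimum and each array left out. Leaving out the 5 arrays with high Tff3 was added after seeing the data.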

Additional observations from a re-analysis of the deposited data

Results flagged for a closer look

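Of the 128 named genes, 10 had a ZT22 array far from the other 3, a gap that chance gives in about 1 of 20 groups. Of the 10, 4 were in ZT22a and as many in ZT22b. The flag of Tff3 in ZT22a was known beforehand, since Tff3 was named for standing apart there. Among called genes, Insig2 measured 10.91 in ZT22a and 11.58 to 11.66 in the others, and Per3 measured 5.73 in ZT22b and 7.06 to 7.31 in the others. In ZT22a, Tff3 measured 11.42 (others 2.50 to 3.84), Nr4a1 6.28 (others 4.23 to 4.39) and Hmgcs1 16.67 (others 16.16 to 16.22). ZT22b was low for Sdha at 10.21 (others 11 to 11.09) and Ier2 at 7.48 (others 7.75 to 7.78), and high for Elane at 4.39 (others 3.88 to 3.93). ZT22d was high for Lpin1 at 11.30 (others 9.56 to 9.75) and low for Ifit2 at 5.00 (others 5.22 to 5.26).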

How the results depend on the processing

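No called difference changed sign under the alternatives tried. Calls of ZT22 minus ZT18 numbered 18 (10 higher, 8 lower) with all arrays, 19 after quantile normalization (17 shared) and 18 after centring. They were 27 among features above the median level (15 lower), 31 with a trend and robust prior (16 lower), 80 with array weights (38 higher, 42 lower), 49 with the 7 arrays alone (22 and 27), 7 on ranks (2 and 5), 8 at a threshold of 0.01 (3 and 5) and 30 without the 5 arrays with high Tff3 (16 lower). With the replicate block there were 12 (6 higher). The letters were not taken to pair arrays, since the labels state no pairing. Deviations of same-letter arrays correlated at 0.029, −0.057 and 0.003, and those of different letters at −0.026 to 0.042. So few arrays cannot exclude a pairing. Each array left out in turn gave 7 to 30 calls, 2 to 13 higher and 5 to 17 lower; the 30 came without ZT6a. The bend at ZT18, with 0 calls, gave 3 (1 higher, 2 lower) above the median level, 2 (2 lower) with a trend and robust prior, 61 (22 and 39) with array weights and 0 to 6 (0 to 2 higher, 0 to 4 lower) with arrays left out. The bend at ZT22, with 6, gave 7 lower with array weights, 10 (7 lower) without the arrays with high Tff3 and 4 to 8 (2 to 3 higher, 2 to 6 lower) with arrays left out. Over the alternatives and the 128 named genes, called genes lost their call 81 times and genes not called gained one 55 times; the cause was not tested. Arntl was called in 6 alternatives, Hmgcs1 and Rbm3 in 8 each, Ciart in 7 and Herpud1 in 5. The number of arrays, and levels near the lower quartile for Tef, Ciart, Cdh13 and Adipoq, limit what could be seen. So does the low ZT18 level of Npas2, with a mean of 4.64.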

Other observations

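Outside the gene lists, several genes lay just short of the threshold, and all were chosen after their values were seen. St3gal5, which makes the ganglioside GM3 from lactosylceramide, measured 12.43, 13.05, 12.31 and 12.66 at ZT22 against 13.64, 14.10 and 13.44 at ZT18, a difference of −1.11 ± 0.23 (adjusted p = 0.0728). Its direction was opposite to that of the called sialyltransferase St3gal1. Pnp, the purine nucleoside phosphorylase, measured 11.39, 11.34, 11.78 and 11.72 against 10.59, 10.65 and 10.62, with a difference of 0.94 ± 0.20 (adjusted p = 0.0785). Stard5, a sterol-binding protein, differed by −0.99 ± 0.21 (adjusted p = 0.0785), and Vac14, a scaffold of the kinase complex that makes phosphatidylinositol bisphosphate on endosomes, by −1.09 ± 0.22 (adjusted p = 0.06). Arrays of both times did not overlap in these 4 genes.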
